A study of Drosophila melanogaster with 2 samples.

Results

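The peaks described here were listed for the protein encoded by CG8765. They appear in the less strict peak list of the series and share no base with any interval of its stricter, conservative list. There were 818 such peaks among the 2825 peaks of the less strict list on the chromosome arms, or 29.0%, and the other 2007 peaks of that list touched a conservative interval and serve as the comparison. The data come from chromatin immunoprecipitation followed by sequencing (ChIP-seq) in whole Drosophila melanogaster embryos collected 0 to 8 hours after laying. The flies of the single transgenic line carried CG8765 fused to enhanced green fluorescent protein, and the fusion protein was pulled down from sonicated chromatin with anti-GFP. The labels give 1 group of 2 biological replicates, no second genotype, treatment or time point, and a control experiment that is not used here. All positions are on build dm6. Embryos of this age hold many cell types and stages, so strong binding in few cells and weak binding in many cannot be told apart.

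ChIP-seq peak lists are often filtered by the irreproducible discovery rate (IDR), which scores how alike the rank of a peak is in separate peak sets, and a conservative list keeps the peaks that do well in the more demanding of the comparisons. Peaks near a transcription start site (TSS) mark binding at promoters, whereas peaks far from any TSS, in introns or between genes, are where fly enhancers usually lie. Many fly promoters are divergent, with genes of opposite strand starting close together, and housekeeping promoters often carry sequence elements such as the DNA replication-related element, which the factor Dref binds. The members were selected on measured values, the IDR in the authors' lists, so their signal, score, IDR and ranks are given below as descriptions without a test.

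The sequences under the strongest of these peaks show what kind of DNA was listed. For each, 61 bp centred on the summit are printed from the RefSeq reference of build dm6, on the strand of the nearest protein-coding gene at promoters and on the plus strand elsewhere. Capitals mark matches, on either strand, to the 6 motifs that passed a test further on, namely the TATA box TATAAA, the DNA replication-related element TATCGATA with its inner core CGATA, core promoter motif 1 or GGTCACAC, the homeodomain core TAATTA and the Pleiohomeotic core GCCAT. The first set holds 3 of the strongest promoter summits, at Gapdh2 (a glycolytic dehydrogenase), Acsf2 (named as an acyl-CoA synthetase family member) and CG13101.
Gapdh2, chrX:15867963-15868023, plus strand: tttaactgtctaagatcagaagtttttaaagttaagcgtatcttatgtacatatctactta
Acsf2, chr2L:5342515-5342575, minus strand: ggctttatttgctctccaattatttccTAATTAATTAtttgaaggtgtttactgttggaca
CG13101, chr2L:8985066-8985126, minus strand: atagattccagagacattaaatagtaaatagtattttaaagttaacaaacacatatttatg
These promoter summits were AT-rich, with a GC content of 26.2%, 31.1% and 21.3%. The next set holds 3 of the strongest distal summits, in introns of tai (taiman, a coactivator of the ecdysone receptor) and of Pvf3 (a ligand of the PDGF and VEGF type).
tai, chr2L:9205202-9205262, plus strand: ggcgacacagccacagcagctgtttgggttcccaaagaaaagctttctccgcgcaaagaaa
Pvf3, chr2L:7123896-7123956, plus strand: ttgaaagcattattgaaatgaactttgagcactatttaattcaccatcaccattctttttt
tai, chr2L:9176906-9176966, plus strand: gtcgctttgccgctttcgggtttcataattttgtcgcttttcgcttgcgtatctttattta
None of these 3 windows held any of the 6 motifs, and their GC content ranged from 27.9% to 52.5%. The last set shows the motifs with the largest ratio of summit to flank share, TATCGATA at CG1677, Sgt1 (a co-chaperone) and Lnk (an adaptor of insulin signalling), and GGTCACAC at PIG-C (an enzyme of GPI anchor synthesis).
CG1677, chrX:7277182-7277242, plus strand: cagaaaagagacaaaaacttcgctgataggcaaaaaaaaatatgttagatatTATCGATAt
Sgt1, chr3R:8305299-8305359, minus strand: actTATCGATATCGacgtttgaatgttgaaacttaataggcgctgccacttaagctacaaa
Lnk, chr3R:25888499-25888559, plus strand: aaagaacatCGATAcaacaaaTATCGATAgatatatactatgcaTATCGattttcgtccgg
PIG-C, chr3L:3319312-3319372, minus strand: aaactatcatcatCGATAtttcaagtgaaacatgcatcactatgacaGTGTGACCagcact
Signals at these 4 summits lay between 55.8 and 68.0, far under the 134 to 283 of the 6 windows above.

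The peaks found only in the less strict list were weak to middling peaks of that list. Their signal, the authors' value per peak, had a median of 66.7, with quartiles of 59.6 and 77.2 and a range of 2.00 to 283. The remaining peaks of the same list had a median of 109, quartiles of 81.4 and 170, and a highest value of 3244. A signal over 100 was reached by 51 of the 818 peaks (6.23%) and by 1138 of the 2007 remaining peaks (56.7%). Of the 818, 814 (99.5%) had the list's usual width of 324 bp, against 1659 (82.7%) of the remaining peaks, and together they covered 264 kb.

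**Figure D1:**
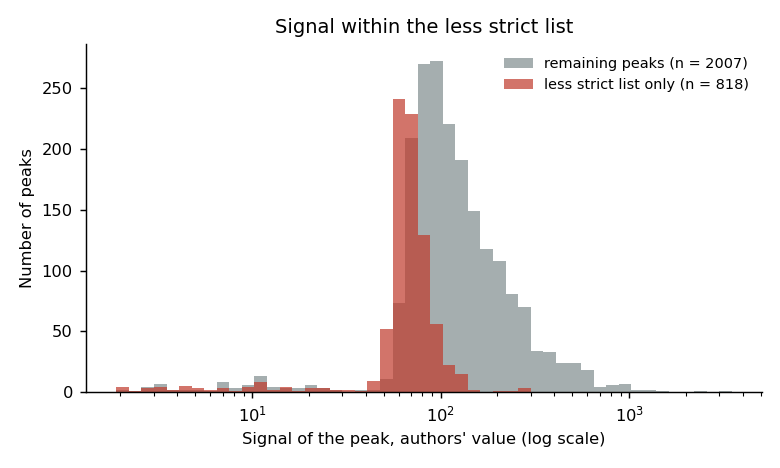
Histogram of the signal of each peak in the less strict list (x axis, the authors' value on a log scale) against the number of peaks, with the 818 peaks found only in that list in red and the 2007 remaining peaks in grey. The red peaks are gathered about their median of 66.7, on the lower side of the grey distribution with its median of 109, and both groups have a thin tail of signals under 10.

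The members of the thin tail all had an overlapping neighbour. Each of the 32 of the 818 peaks with a signal under 10 shared bases with another interval of the same list. At N, the Notch receptor gene, an interval with a signal of 3.37 at chrX:3134634-3134957 overlapped one with 71.2 at chrX:3134396-3134719. At CG2930 an interval with a signal of 2.10 overlapped one with 97.9. In all, 117 of the 818 peaks (14.3%) overlapped another peak of the list, against 172 remaining peaks (8.57%).

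The IDR that chose the members is on a −log10 scale in the authors' ranked lists, and both thresholded lists started at 2, an IDR of 0.0100. In the ranking behind the less strict list, the 818 peaks had a median of 2.31 and the remaining peaks 3.20. In the ranking behind the conservative list, 773 of the 818 had an entry, with a median of 1.52, and 45 had none; the remaining peaks had a median of 2.74. The members closest to the less strict threshold were at Ubc2 (2.0002), Grip (2.0006) and SNF4Agamma (2.0011), and ranked peaks just outside it were at CG43107 (1.9997), Lmpt (1.9993) and CG13984 (1.9988). Those closest to the conservative threshold were at Cyp49a1 (1.9995), ppk (1.9991) and BigH1 (1.9981), and the remaining peaks just across it were at Cpr (2.0005), ush (2.0020) and CG17048 (2.0025). The signals just under the conservative threshold were 59.8 at Cyp49a1, 62.0 at ppk and 80.0 at BigH1, and those across it were 63.3 at Cpr, 68.2 at ush and 64.3 at CG17048, so the ranges overlap.

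Most of these peaks stood high in 1 replicate and low in the other. Each replicate has its own thresholded list, and a peak was counted as present there when at least 1 bp overlapped. Of the 818 peaks, 275 (33.6%, exact 95% binomial interval 30.4 to 37.0) overlapped a peak of replicate 1's list only, 234 (28.6%, 25.5 to 31.8) one of replicate 2's list only, 303 (37.0%, 33.7 to 40.5) one of neither, and 6 (0.733%) one of each. Among the remaining peaks, 984 of 2007 (49.0%) were in both replicates' lists, 445 (22.2%) in replicate 1's only, 308 (15.3%) in replicate 2's only and 270 (13.5%) in neither. These intervals cover counting error over peaks and not the spread between embryos. The replicates' lists come from the same alignments as the lists that defined the members, so the split is a description.

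Ranks by signal in each replicate's long ranked list, where rank 1 is the strongest peak, show the same split as a scale. The members found in replicate 1's list only had a median rank of 1210 there and 12775 in replicate 2. Those in replicate 2's list only had a median rank of 1120 there and 17577 in replicate 1. Those in neither list had middling ranks in both, with medians of 5204 and 4029. Over the 737 members ranked in both replicates, the worse rank was a median of 6.87 times the better one, against 1.88 times over 1994 remaining peaks, and it was over 10 times the better one for 276 members (37.4%) and 47 remaining peaks (2.36%). The better rank was in replicate 1 for 388 members and in replicate 2 for 349. No ranked peak at all overlapped 68 members in replicate 1 and 13 in replicate 2.

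**Figure D2:**
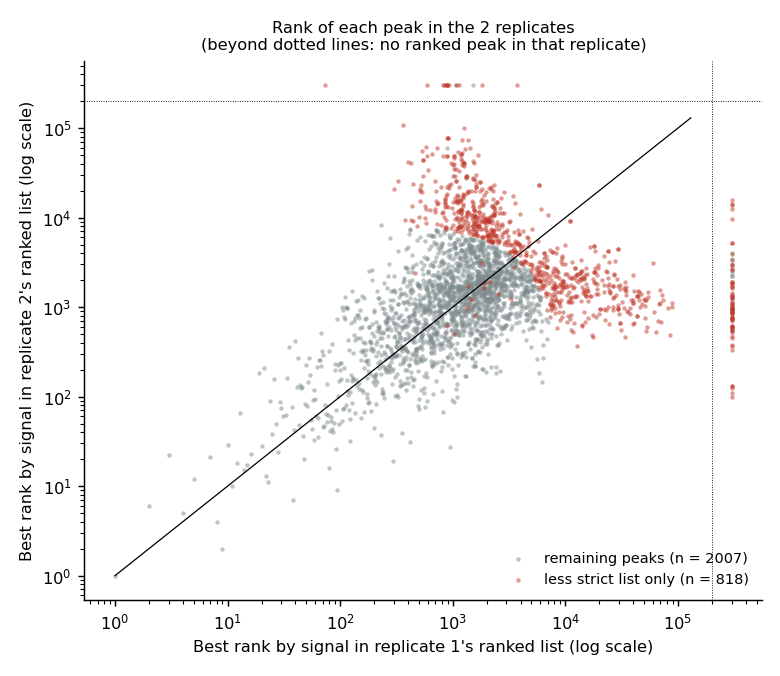
Best rank of each peak in replicate 1's ranked list (x axis) against that in replicate 2's (y axis), both on log scales, with the 818 peaks of the less strict list only in red, the 2007 remaining peaks in grey and points beyond the dotted lines having no ranked peak in that replicate. The red points form 2 arms away from the diagonal of equal rank, and the grey points fill the corner of good ranks in both replicates.

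The strongest members show the split gene by gene. The peak at Gapdh2 (chrX:15867909-15868080, summit 152 bp upstream of the TSS) had the highest signal, 283; it ranked at 100 in replicate 2, and replicate 1 had no ranked peak there. The peak at gus, whose product binds the germ plasm protein Vasa, had a signal of 270 with its summit 67 bp upstream of the TSS; it ranked at 74 in replicate 1, and replicate 2 had no ranked peak there. The peak deep in tai (chr2L:9205187-9205310, in an intron 28874 bp from the nearest protein-coding TSS) had a signal of 262, a rank of 109 in replicate 2 and none in replicate 1. So each of the 3 strongest members was in the list of 1 replicate and overlapped no ranked peak in the other. All 3 intervals were narrower than the list's usual width of 324 bp, which 814 of the 818 members had. The next strongest member, at 14-3-3zeta (chr2R:10101673-10101791, signal 247), was also narrower and overlapped no ranked peak in replicate 1. The strongest members are thus the narrow ones and are unlike the others in width. Whether the width of these intervals affected the overlap with ranked peaks was not tested.

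The next strongest promoter members lay mostly in replicate 2's list. Of the 20 promoter members with the highest signal, 14 were in replicate 2's list only, 4 in replicate 1's only and 2 in both. Those in replicate 2's only included Acsf2 with a signal of 214, CG13101 with 157, ND-24 (a subunit of respiratory complex I) with 146, Hex-A (a hexokinase) with 106, mRpS7 (a mitochondrial ribosomal protein) with 103 and HmgZ (a high mobility group box protein, with the summit in an intron of HmgD or HmgZ) with 100. Those in replicate 1's only were gus, dsx (the sex determination factor doublesex) with 102, CG2930 with 97.9 and ced-6 (an adaptor for the engulfment of dying cells) with 97.2. At dsx the rank was 518 in replicate 1 and 23386 in replicate 2, and at Hex-A it was 10368 and 677. The other distal members among the strongest were 14-3-3zeta (a phosphoserine-binding adaptor) with 247 and Hipk (a protein kinase) with 129, both in replicate 2's list only, and Pvf3 with 139 and a site in an intron of CG1677, nearest to unc-119, with 130, both in replicate 1's only. At Pvf3 the rank was 299 in replicate 1 and 20789 in replicate 2, so that in this gene, too, the replicates stood far apart.

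Only 6 members were found in both replicates' own lists. They lay at CG4709 (signal 135), Tmf (128, encoding a Golgi protein), CG11200 (88.6), E(spl)m7-HLH (87.7, a basic helix-loop-helix repressor that Notch induces), Antp (81.8, the Hox gene Antennapedia) and dUTPase (68.5, which removes dUTP). At Tmf the ranks were 891 and 609, and at Antp they were 1906 and 1857, so the replicates were close. Their −log10 IDR in the ranking behind the conservative list was nevertheless 0.167 to 1.46, under its threshold of 2.

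The peaks of the less strict list only were at a TSS less often than the remaining peaks. Summits no more than 500 bp from a TSS numbered 337 of 818 (41.2%, exact 95% interval 37.8 to 44.7) against 1091 of 2007 remaining peaks (54.4%, 52.2 to 56.6), an odds ratio of 0.588 (0.497 to 0.696), with an adjusted p of 1.84e-09 by a two-sided Fisher's exact test with Benjamini-Hochberg adjustment over the 7 shares compared. Of these 7 shares, 5, or 71.4%, passed an adjusted p of 0.05. Among peaks present in replicate 2's list the odds ratio was 0.889 and did not pass, with an adjusted p of 0.494, and among peaks present in replicate 1's list the odds ratio was 0.376. The TSS share followed the replicate: it was 29.8% (24.5 to 35.6) for members in replicate 1's list only, 56.0% (49.4 to 62.4) for those in replicate 2's only and 39.6% (34.1 to 45.4) for those in neither. The remaining peaks had the same order, with 43.1% in replicate 1's list only and 59.7% in replicate 2's only. This split was made after the values had been seen and was not tested.

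At promoters, these peaks differed from the remaining ones in the kind of promoter. A divergent pair here means protein-coding TSSs of both strands within 500 bp of the summit, whichever way round they lie. It was present for 73 of 337 TSS summits (21.7%, 17.4 to 26.4) against 432 of 1091 (39.6%, 36.7 to 42.6). The odds ratio was 0.422 (0.312 to 0.565), with an adjusted p of 2.56e-09 (Fisher's exact test). By presence in the replicates' lists, the share of members was 22.0% (13.6 to 32.5) against 32.8% (26.2 to 39.9) of remaining peaks in replicate 1's list only, 23.7% (16.7 to 31.9) against 31.0% (24.4 to 38.2) in replicate 2's only, and 17.5% against 36.3% in neither. In both replicates' lists it was 3 of 4 TSS summits of members against 45.3% of the remaining peaks. The gap was thus narrower within either single-replicate class, where the intervals overlap, than between the whole groups, and these classes were not tested. In the 7 alternative settings that were tested, none of which matched the classes, the odds ratio was between 0.420 and 0.512.

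Summits of these peaks also lay less strictly upstream of the TSS. Of 336 summits within 500 bp and not on the TSS itself, 228 (67.9%) were upstream, against 882 of 1090 (80.9%), an odds ratio of 0.498 (0.375 to 0.663) and an adjusted p of 3.03e-06 (Fisher's exact test). The median summit was 66 bp upstream for the members and 96 bp upstream for the remaining peaks, and the upper quartile was 34 bp downstream against 31 bp upstream. Members in replicate 2's list only lay at a median of 114 bp upstream, and those in neither list at 28.5 bp. Among peaks present in replicate 2's list the odds ratio was 0.746, with an adjusted p of 0.335. The nearest TSS belonged to a protein-coding gene for 299 of the 337 summits, to a noncoding RNA gene for 34, to a small nuclear RNA gene for 3 and to a tRNA gene for 1.

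**Figure D3:**
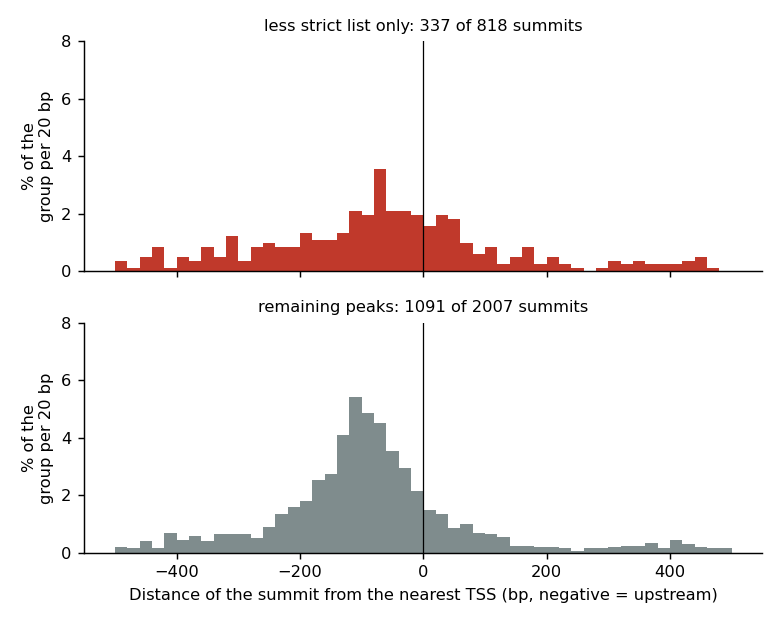
Distance of the summit from the nearest TSS (x axis, bp, negative values upstream) against the percentage of each group per 20 bp, with the 818 peaks of the less strict list only in the upper panel and the 2007 remaining peaks in the lower. The remaining peaks form a sharp mound upstream, around their median of 96 bp, and the members a lower and broader one that reaches across the TSS.

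Over all summits, those at promoters included, the peaks were spread over introns, exons and the space between genes. Summits lay in exons for 171 of 818 (20.9%) against 16.3% of the remaining peaks, an odds ratio of 1.35 (1.09 to 1.67), and between genes for 309 (37.8%) against 43.5%, an odds ratio of 0.789 (0.665 to 0.935), each with an adjusted p of 0.00771 (Fisher's exact test). Neither call held when only members above their median signal were taken, where the odds ratios were 0.829 and 0.843. The intron share was 41.3% against 40.2%, an odds ratio of 1.05 with an interval of 0.886 to 1.24. Away from promoters, over 500 bp from any TSS, distal exonic summits made up 8.07% of the members and 3.49% of the remaining peaks. Distal intergenic summits made up 21.0% and 14.2%, the opposite direction to all intergenic summits, of which 137 of the members' 309 and 589 of the remaining peaks' 873 lay at a TSS. These distal shares were not tested. By replicate, distal intergenic summits made up 32.0% of the members in replicate 1's list only and 12.4% of those in replicate 2's only, the same direction as in the remaining peaks, with 20.7% and 9.09%. In replicate 1's list only, 15.6% of members and 15.5% of remaining peaks had exonic summits, and 4.36% and 4.49% distal exonic ones. In replicate 2's list only, these shares were 16.2% and 21.1%, and 4.27% and 3.25%. In neither list they were 29.0% and 24.4%, and 14.5% and 7.04%. The excess of distal exonic summits thus lay mainly in neither list, with 44 of the members' 66. These classes were not tested.

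**Figure D4:**
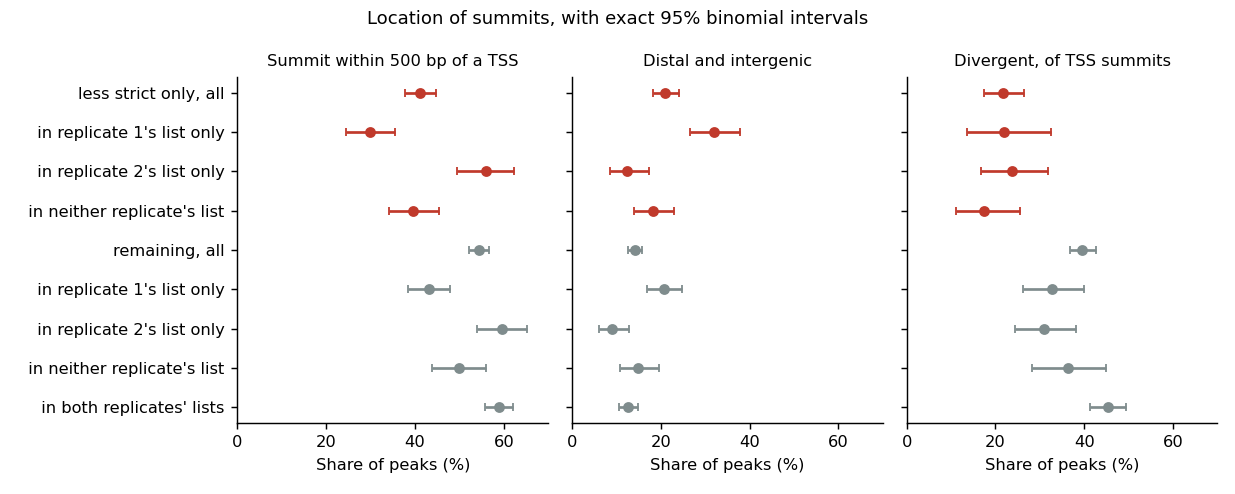
Share of summits within 500 bp of a TSS (left), distal and intergenic (middle) and, of the TSS summits, at a divergent pair (right), in percent with exact 95% binomial intervals, for the peaks of the less strict list only (red) and the remaining peaks (grey), in all and by presence in the replicates' own lists. The TSS share is lowest, 29.8%, for members in replicate 1's list only, and the divergent share of all the members, 21.7%, lies under the 39.6% of the remaining peaks.

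No large arm was short of these peaks. There were 152 on 2L, 149 on 2R, 178 on 3L, 199 on 3R and 140 on X, which is 5.89 to 6.46 per Mb and 27.3% to 29.7% of the less strict list on each arm, and none lay on 4 or Y, which hold 1 peak of the list each. The X share was 17.1% against 18.5% in the remaining peaks, an odds ratio of 0.908 with an interval of 0.727 to 1.13. The median distance of a member to the nearest conservative interval was 12.4 kb. Of the members, 448 (54.8%) lay over 10 kb from every such interval, and 55 (6.72%) lay within 500 bp of one. Within 500 bp of another member were 128.

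The base composition at the summits differed between the members found in neither replicate's list and those found in 1 of them. The median GC content within 100 bp of the summit was 39.8% for all members and 43.0% in their flanks. It was 37.3% for members in replicate 1's list only and 37.8% for those in replicate 2's only, both under their flanks at 43.5% and 42.4%, as in the remaining peaks with 36.3% against 44.0%. In the 303 members found in neither list it was 47.3%, with quartiles of 38.1% and 52.7% that overlap those of the others, and above their flanks at 42.3%, and 29.0% of these summits lay in exons. Among the 270 remaining peaks in neither list the median was 41.3%, against 43.4% in the flanks. No test was made of these values.

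Of 16 short motifs searched on both strands within 100 bp of each summit, 4, or 25.0%, were more frequent at the members' summits than in their own flanks by an exact two-sided McNemar test, Benjamini-Hochberg adjusted over the 16. The TATA box, TATAAA, which the TATA-binding protein recognises, was in 26.9% of summit windows and 20.4% of flanks (adjusted p = 0.0116, exact test), and in 26.9% of equally long windows at all protein-coding TSSs. CGATA, the core bound by the insulator protein BEAF-32, was in 28.7% and 19.6% (adjusted p = 4.24e-04, exact test), against 37.1% at all protein-coding TSSs. The DNA replication-related element TATCGATA was in 19 windows, or 2.32%, and in 0.367% of flanks (adjusted p = 0.00684, exact test), against 6.44% at all protein-coding TSSs. Core promoter motif 1, GGTCACAC, was in 15 windows, or 1.83%, and in 0.367% of flanks (adjusted p = 0.0302, exact test), against 5.68%. Both long motifs, shown at Sgt1 and PIG-C above, were thus in few member windows, and a match describes the letters and shows no site. The windows at all TSSs are an unlike set, since 304 of the 818 member summits (37.2%) lay within 500 bp of a protein-coding TSS. At the remaining summits, TATCGATA was in 3.99% of windows and GGTCACAC in 1.69%. The calls of both long motifs rest on few windows and were lost, for TATCGATA, under 4 of 7 alternatives and, for GGTCACAC, under 6. The members' summits had a lower median GC content than their flanks, 39.8% against 43.0%. The part of this difference in the 4 calls was not tested.

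Compared with the remaining peaks, 3 of the 16 motifs, or 18.8%, differed by Fisher's exact test with Benjamini-Hochberg adjustment, each with an adjusted p of 0.0138. TATAAA was in 26.9% of member windows against 32.8%, an odds ratio of 0.754 (0.627 to 0.906). TAATTA, the core that homeodomains bind, was in 10.9% against 15.4%, an odds ratio of 0.671 (0.516 to 0.866), and in 9.39% of windows at all protein-coding TSSs. GCCAT, the core of Pleiohomeotic sites, was in 33.3% against 27.5%, an odds ratio of 1.31 (1.10 to 1.57), and in 30.8% at all protein-coding TSSs. In their own flanks, members had GCCAT in 34.2% of windows and remaining peaks in 33.3%. GCCAT was thus below its flank share at the remaining summits and not above it at the members'. TAATTA was in 13.4% of the members' flanks and 10.5% of the remaining peaks', and TATAAA in 20.4% and 19.2%. At member summits, neither GCCAT nor TAATTA passed against flanks (adjusted p = 0.870 and 0.269, exact McNemar test). Remaining summits were not tested against flanks. These motifs differ in AT content, and the base composition differed between the groups as given above; its part in these differences was not tested. None of the 3 passed against remaining peaks under their own median signal, where the odds ratios were 0.964, 0.740 and 1.20. TATAAA was in 30.9% of windows of members in replicate 1's list only, 32.1% of those in replicate 2's only and 19.1% of those in neither. The other 13 motifs, among them the GAGA element GAGAG, the Zelda site CAGGTA, the initiator TCAGTT and the E-box CANNTG, did not pass.

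**Figure D5:**
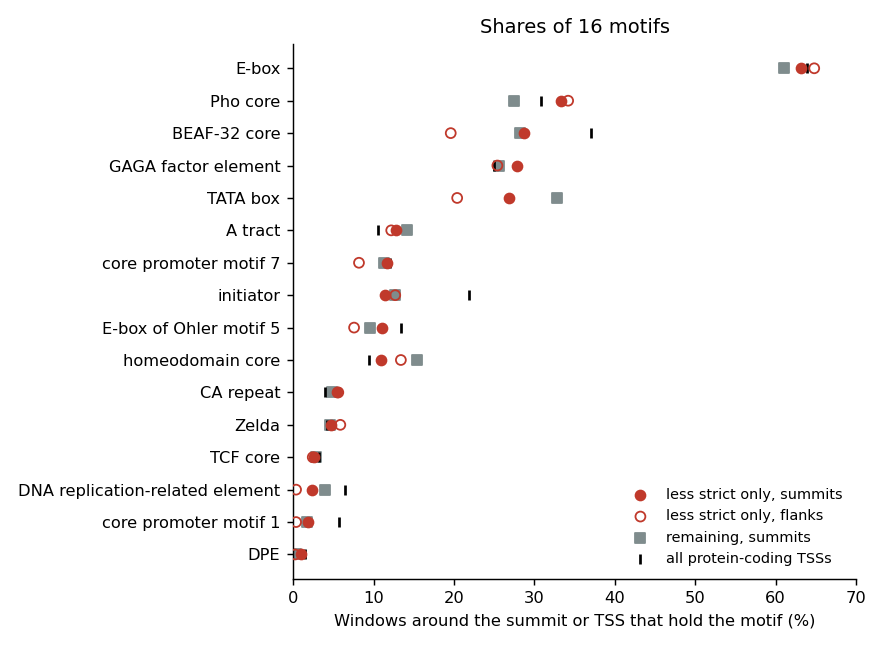
Percentage of windows of 201 bp that hold each of 16 motifs (x axis), at the summits of the 818 peaks of the less strict list only (filled red), in their flanks (open red), at the summits of the remaining peaks (grey squares) and at all protein-coding TSSs (black ticks). The filled and open red circles stand farthest apart for the BEAF-32 core, at 28.7% and 19.6%, and for the TATA box, at 26.9% and 20.4%.

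A summit of these peaks lay within 500 bp of a TSS of 357 of 13968 protein-coding genes (2.56%), and a remaining summit of 1393 (9.97%). Of the 357 genes, 327 (91.6%) had no remaining summit at a TSS. By nearest protein-coding TSS at any distance, the members belonged to 694 genes (4.97%), of which 233 (33.6%) were also the nearest gene of a remaining peak. The gene lists below are described by such counts beside these background shares, without a test.

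Genes of basic cell function had a member at a promoter in fewer cases than a remaining summit, in most of these lists. The same direction held over all protein-coding genes, with 2.56% against 9.97%. In several of the lists the share with a member was above that 2.56%. Cytoplasmic ribosomal protein genes had a member at 4 of 86 promoters (4.65%), at RpL19, RpL36, RpS19a and RpS27A, and a remaining summit at 28 (32.6%). Mitochondrial ribosomal protein genes had 3 of 73 (4.11%) against 14 (19.2%), translation factors 1 of 51 (eIF2gamma) against 10, and proteasome subunits 0 of 48 against 5. Genes of oxidative phosphorylation had 4 of 80, which were ND-24, ND-B17, COX5B and ATPsynCF6, against 6. Cell cycle and DNA replication genes had 2 of 40, Cdk1 (the mitotic kinase) and stg (its activating phosphatase), against 10; the summit at Cdk1, with a signal of 103, is the one 160 bp upstream of mRpS7. Small nuclear RNA genes had 4 of 32 (12.5%), the same number as in the remaining peaks, with signals of 85.9 at snRNA:U2:34ABb and 81.2 at snRNA:U4:39B. Transfer RNA genes had 3 of 295 against 6, small nucleolar RNA genes 0 of 257 against 6, and genes of heat shock and chaperones 1 of 32 against 5. The 1 chaperone gene was CCT3, a chaperonin subunit gene that shares its summit with CG10324. Many small RNA genes have near-identical copies, so the reads of one copy may have been placed on another.

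Regulators of promoters and chromatin had members in a few cases. Among insulator and promoter-binding proteins, members lay within 500 bp of a TSS at 2 of 24 genes, BEAF-32 with a signal of 77.5 and lola, against 10 for the remaining peaks, and were nearest to Trl (the GAGA factor, 71.7) and psq (70.3). Of 29 Polycomb and trithorax group genes, 3 had a member at a promoter, Psc with 74.0, ph-d with 60.4 and kis with 59.8, and all 3 were in neither replicate's list. A remaining summit lay at a promoter of 6 of the 29 genes. The summit at Su(var)3-9, a histone methyltransferase gene, is shared with eIF2gamma, since both genes start there. In the list of chromatin remodelling and histone modification, Su(var)3-9 was the only 1 of 28 genes with a member at a promoter. A remaining summit lay at a promoter of 5 of the 28.

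Some lists of patterning and signalling genes held members only at a distance from their TSS. Over all protein-coding genes, 2.56% had a member within 500 bp of a TSS. At that share a short list would hold few or none, so an absence is not read as a trait of its genes. Other such lists also held members at promoters, as at 2 of 22 Notch and E(spl) genes, E(spl)m7-HLH and N, against 4 with a remaining summit. In the list of segment polarity, Wnt and Hedgehog genes, 5 of 25 were nearest to a member, against 7 nearest to a remaining peak. None had a member within 500 bp of a TSS, against 3 with a remaining summit. All 8 members of the list were in replicate 1's list only. They included ptc, the Hedgehog receptor gene, with a signal of 115 at 5296 bp upstream and ranks of 446 in replicate 1 and 23897 in replicate 2. At wg, the Wnt ligand gene wingless, the strongest of 3 members had a signal of 105 and ranks of 545 and 29288. At fz2, a Wnt receptor gene, the signal was 79.3 and the ranks were 1180 and 8047. The hh and nej genes, encoding the Hedgehog ligand and a histone acetyltransferase, were the other 2. The better rank in replicate 1 follows from the presence in its list only.

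The list of dorsoventral and Dpp/BMP genes had 5 of its 6 peaks in replicate 1's list only and 4 of 30 genes nearest to a member, against 8 nearest to a remaining peak. At Mad, which transduces the Dpp signal, the signal was 109 at 652 bp upstream of the TSS, and the ranks were 362 in replicate 1 and 107314 in replicate 2. The others were tup (78.5, a LIM-homeodomain factor), ush (78.3, a cofactor of GATA factors) and tsh. Of the Hox genes, Ubx had a member with a signal of 112 in an intron, ranked at 570 and 13445, and Antp had 4 members with signals of 67.7 to 81.8. Of 38 genes of neurogenesis and neuronal fate, 3 had a member at a promoter, D, Lim1 and pros, against 6 with a remaining summit. Lim1, a LIM-homeodomain gene, had 3 members, the strongest with 128 and ranks of 329 and 25748. Doc1, a T-box gene of the dorsal ectoderm and heart, had one with 110 at 6893 bp upstream and ranks of 580 and 8767. Another member lay within 500 bp of a TSS of Doc1. Gap, head and pair-rule genes had members with signals of 70.6 at oc, 67.6 at kni, 78.7 nearest to ftz and 55.0 at slp1, where the summit lay 22 bp upstream of the TSS.

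Other developmental lists had their peaks in replicate 2's list as well. Of the 4 peaks at Notch and E(spl) genes, 3 were in replicate 2's list only and 1, E(spl)m7-HLH, in both; mam, a coactivator of Notch, had a signal of 90.8 and ranks of 51266 in replicate 1 and 1037 in replicate 2. In the ecdysone and nuclear receptor list, 6 of 29 genes (20.7%) were nearest to 11 members, 5 of them in replicate 2's list only and 5 in neither. As many genes of that list, 6, were nearest to a remaining peak. Eip75B, an ecdysone-induced nuclear receptor gene, had 4 members, the strongest with signals of 102 in replicate 2's list only and 101 in replicate 1's only. Among mesoderm, muscle and endoderm regulators, 9 of 27 (33.3%) were nearest to a member, as many as to a remaining peak. There, srp (a GATA factor) with 97.4 and Mef2 (a muscle factor) with 93.6 were in replicate 2's list only, and bin (a forkhead factor of the visceral mesoderm) with 73.8 in replicate 1's only.

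Genes of signalling by receptor tyrosine kinases had 10 members nearest to 8 of 31 genes (25.8%), divided 4, 3 and 3 between replicate 1's list only, replicate 2's only and neither. A remaining peak was nearest to 12 of these genes (38.7%). Over all 13968 protein-coding genes, 694 (4.97%) were nearest to a member and 1542 to a remaining peak. The members of the list included ths (an FGF, 83.2), spi (an EGF receptor ligand, 77.6) and pnt (an Ets factor, 75.1). Hippo and planar polarity genes had 9, among them ds (a protocadherin, 83.5), scrib (a polarity scaffold, with 3 members) and Mer (74.6). Of the 21 genes in that list, 6 were nearest to a member and 8 to a remaining peak. Adhesion and junction genes had 9 members, among them pyd (a junction scaffold, 88.4), kirre (a myoblast adhesion protein, 86.9) and ed (73.5), and genes of cell death and JNK signalling had 4, at grim (82.5), rpr (70.8), Tak1 (59.9) and kay. Of 27 adhesion and junction genes, 7 were nearest to a member and 8 to a remaining peak. Of 18 cell death and JNK genes, 4 and 7 were. No member lay nearest to any of 12 early zygotic and cellularization genes or of 26 contractile muscle and terminal neuronal genes. A remaining peak lay nearest to 1 gene of each of these lists. At the 4.97% of all protein-coding genes nearest to a member, lists this short would hold few or none. The chemosensory receptor list, with 186 genes, had 2 genes nearest to a member and 4 nearest to a remaining peak. The cuticle and Osiris list, with 119, had 1 and 0.

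Some genes gathered several members. Antp, CG43736, Eip75B, Ten-a and tai were each nearest to 4, and 12 other genes to 3. All 4 at CG43736 were in replicate 2's list only, with signals of 4.47 to 101, and all 3 at wg were in replicate 1's only, with 64.0 to 105. At tai 3 of 4 were in replicate 2's list only, and at Myc, the growth regulator gene, the 3 members, with signals of 66.1 to 122, were divided evenly between replicate 1's list only, replicate 2's only and neither. Neighbouring members at 1 gene are not independent of each other. The counts also include intervals with a signal under 10, as at CG43736, Eip75B (3.42) and Ten-a (2.00), which all overlapped another interval of the list. Overlapping intervals can share their presence and ranks, as at CG2930, where those with signals of 97.9 and 2.10 both had 541 and 43756. Such a pair is not 2 separate sites with independent replicate status.

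The tagged gene itself, CG8765 (FBgn0036900, chr3L:19683941-19687353), lay under peaks of both kinds. A member in an exon, 456 bp downstream of the TSS at chr3L:19686735-19687058, had a signal of 69.5, ranks of 2053 and 6272 and was in neither replicate's list. A remaining peak with its summit 42 bp upstream of the TSS had 63.6, and another 1233 bp downstream had 54.1. A further member, at chr3L:19690972-19691295 and nearest to Gbeta76C (a G protein beta subunit gene), had 74.4 and was in replicate 1's list only. At this locus the members had the higher signals in the less strict list and the remaining peaks the closer ranks in the replicates, 3122 and 2982 at the TSS. Whether the transgene adds reads here was not tested.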

How the data were processed

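Per the labels, ChIP-seq of CG8765-eGFP used fragments of 200 to 800 bp. The deposited lists hold, per peak, the authors' signal, a score (830 to 1000 in the less strict list) and, in the ranked lists, the −log10 of the IDR. For aligner and caller, the sources used here give no name. No read counts were used, so the depth is unknown and no interval on a signal can be given. The signal's scale differs between lists, so replicates were related through ranks. Another 16 columns, which the labels tie to neither replicate, were not used.

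Each thresholded list of the series was matched to its ranked list by interval and score. Members share no base with a conservative interval on the chromosome arms, 4 and Y included. TSSs came from Ensembl release 115 (BDGP6.54) without transposable elements, and sequence from RefSeq's dm6 assembly. Shares were compared with Fisher's exact tests, summits with flanks 450 bp away by exact McNemar tests, with peaks as units, which do not measure the spread between embryos. Named genes are those of the strongest 20 promoter and 6 distal members, the strongest 3 of each of 30 gene lists, the extremes of signal and rank, and CG8765. Other genes, among them the remaining list genes and genes with several members, were chosen after their values were seen. Printed sequences follow the signal order, passing over arm 2R and windows with over 30 bases of annotated UTR. The members, gene lists and motifs were chosen with earlier results of these data known. Overlap and motif functions were tested on simulated data. Tests ran in SciPy 1.17.1 under Python 3.11.15, tables in pandas 2.3.3 and NumPy 2.4.6, and plots in matplotlib 3.10.9.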

Additional observations from a re-analysis of the deposited data

How the results depend on the processing

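Odds ratios of the 7 location shares kept their direction and side of the threshold in 39 of 52 alternatives, and the divergent share did so in all 7. With only members above their median signal, the exon odds ratio turned to 0.829, the intergenic one lost its call at 0.843, and the intron one gained a call at 1.31 (adjusted p = 0.0268, Fisher's exact test). Against remaining peaks under their median signal, the intergenic and exon odds ratios of 0.857 and 1.07 did not pass. Restricting both groups to peaks in 1 replicate's list, without replicate 1 or without replicate 2, gave odds ratios of 0.376 to 0.889 for the TSS share, 0.379 to 0.746 upstream, 0.950 to 1.26 for introns, 0.733 to 0.961 between genes, 1.14 to 1.19 for exons and 0.711 to 1.15 for X. The number of motifs that differed from the remaining peaks, 3 in the main setting, was 1 against remaining peaks under their median signal, which was none of those 3, and 0 with members above their median signal, with a 50 bp window and in either replicate alone (0 to 0). The number called against flanks, 4 in the main setting, was 2 with members above their median signal and 1 to 2 in a single replicate. Smaller groups were tested in each restricted setting; the cause was not tested further. At an overlap of at least 50%, members present numbered 31.3% for the list of replicate 1 and 27.8% for that of replicate 2. No paired analysis was possible because the series holds 1 group. The unknown depth limits every statement on a single peak.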
